A study of Mus musculus with 8 samples.

Results

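The genes described here are those whose transcripts stood on the same side of control both while a MYC inhibitor was present and 2 days after it had been taken away. They were chosen from the measurements themselves. Each gene was read from the probe set (a group of probes for 1 transcript) with the highest mean over all 8 arrays, and the difference of group means from DMSO had to be at least 0.5, or at most -0.5, on the log2 scale in both the inhibitor-treated and the released cells. Of 18193 genes measured, 92 (0.506%) were higher by this rule and 59 (0.324%) were lower. With median centring of the arrays the counts were 72 and 70, with repeated quantile normalization 77 and 66, and with all probe sets of a gene averaged 41 and 51, so the balance of the directions depends on the processing. Both differences are taken against the same 3 DMSO arrays, so a chance deviation of those arrays enters both. The differences chose the genes, are given as a description only, and carry no test.

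The cells were mouse embryonic stem cells (ESCs), kept on gelatine without feeders or serum in N2B27 medium with LIF and 2 kinase inhibitors, PD0325901 at 1 μM against MEK and CHIR99021 at 3 μM against GSK3, a mixture known as 2i. The DMSO group (3 arrays) received solvent alone and was compared after 60 h, and the inhibitor-treated group (2 arrays) received 64 μM of 10058-F4 for 60 h. The released group (3 arrays) received the inhibitor for 60 h and then spent 48 h in 2i medium without it. It was thus cultured longer after the start of treatment than the DMSO group, and time in culture and earlier exposure cannot be told apart. All groups shared 2i medium. The labels do not say whether replicates were separate cultures, so p-values measure the spread between these arrays only, which may be technical. In bulk RNA of this kind, fewer cells with a transcript and less RNA per cell cannot be told apart.

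MYC is a transcription factor that binds DNA together with its partner MAX, most tightly at the E-box CACGTG, and drives genes of growth, metabolism and ribosome production. The compound 10058-F4 keeps MYC and MAX apart. It acts on the proteins rather than on their transcripts, so the Myc and Max transcripts do not check the treatment label. In pluripotent cells the MYC proteins are known for sustaining growth and proliferation.

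The arrays of a group resembled each other closely, with Pearson correlations across genes of 0.9977 to 0.9982 within groups, and genes are not independent replicates. Defining ESC markers were present throughout. The mean log2 value of 10 of 10 measured markers, among them Pou5f1, Sox2 and Nanog, lay at 11.37 to 11.40 with DMSO, at 11.51 to 11.53 with the inhibitor and at 11.41 to 11.43 after release, and 0 of them passed the test after release (limma, adjusted p under 0.05; at this threshold 8.66% of all genes did). With the inhibitor, 4 of the 10 ESC markers were called higher and 2 lower (19.2% and 22.3% of all genes), which the list mean does not show. Of 6 neural markers, 3 were lower after release, and Tubb3 and Map2 among them belong to the lower genes described here. Their list mean ran from 5.08 to 5.24 with DMSO, was 4.56 on both inhibitor-treated arrays, and ran from 4.78 to 4.94 after release. Of 5 measured T cell markers, Cd3d, Cd3e and Cd3g were higher after release while Ptprc, which all T cells carry, lay within the level of the bacterial Trpn control probe sets (2.15 to 2.95). Of 8 trophectoderm markers, 3 were higher with the inhibitor (Eomes by 2.23, Gata3 by 1.28 and Krt7 by 1.10), and Tfap2c and Krt7 were lower after release. Their list mean ran from 5.18 to 5.23 with DMSO, from 5.66 to 5.83 with the inhibitor and from 4.97 to 5.13 after release. On the fibroblast, endoderm and mesoderm lists 0 markers were called after release. The part of other cell types in the values below was not tested.

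The persistently shifted genes were a small share of what the inhibitor moved. Of 1822 genes (10% of those measured) at least 0.5 higher with the inhibitor, 1676 (92.0%) lay within 0.5 of DMSO after release, 54 lay on the other side of it, and 92 (5.05%) remained at least 0.5 higher. Of 1464 genes (8.05%) at least 0.5 lower with the inhibitor, 1364 (93.2%) lay within 0.5 of DMSO after release, 41 stood opposite, and 59 (4.03%) remained at least 0.5 lower. Seen from the released cells the share was larger, since 226 genes (1.24%) were at least 0.5 above DMSO there and 194 (1.07%) at least 0.5 below, of which the persistent genes made up 40.7% and 30.4%.

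**Figure D1:**
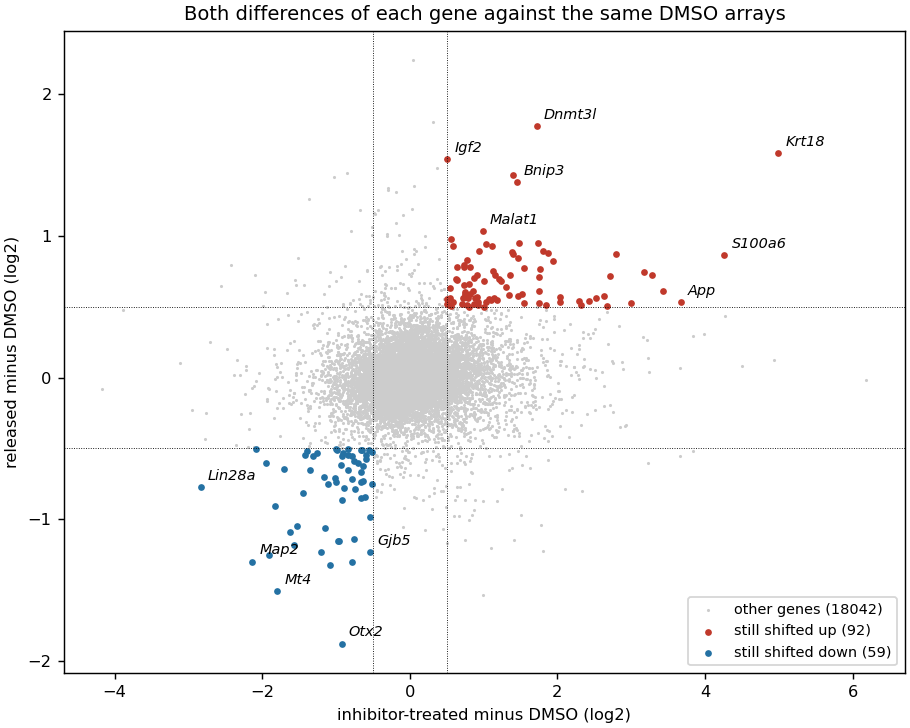
Difference of inhibitor-treated from DMSO cells (horizontal axis, log2) against difference of released from DMSO cells (vertical axis, log2) for 18193 genes, each point 1 gene, with dotted lines at 0.5 and -0.5. The 92 higher genes (red) fill the upper right corner, where Dnmt3l and Krt18 stand apart, and the 59 lower genes (blue) the lower left, where Otx2 lies lowest.

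Among the 92 higher genes the median difference from DMSO was 1.12 (range 0.50 to 5.0) with the inhibitor and 0.62 (0.50 to 1.77) after release. Among the 59 lower genes the medians were -0.92 (-2.83 to -0.51) and -0.72 (-1.88 to -0.50). Over all genes the medians were -0.06 and 0.00. Differences of at least 1 in size in both comparisons were found in 4 higher genes (Dnmt3l, Krt18, Tmem181a and Bnip3) and 9 lower genes. The values of the DMSO arrays did not overlap those of either other group for 92 of 92 and 59 of 59 genes, values that the rule had used. Over all genes, 25.5% were higher and 35% lower without overlap with the inhibitor, and 14.6% and 14% after release.

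The edge of the rule is not a natural gap. Just inside it among the higher genes lay the ubiquitin ligase gene Siah2 (0.50 with the inhibitor and 0.55 after release), Reck, whose product holds matrix metalloproteinases in check (0.80 and 0.50), and the mitochondrial carrier gene Slc25a40 (1.00 and 0.50). Just outside lay Khdrbs3 (0.82 and 0.50), Chst11 (1.73 and 0.50) and Exoc3l (0.80 and 0.49). Among the lower genes the spermine oxidase gene Smox (-1.0 and -0.51), Rilpl1 (-0.83 and -0.51) and Khdc3 (-2.09 and -0.50) lay inside, and Ror1 (-0.92 and -0.50), Abhd8 (-0.79 and -0.50) and Csrnp3 (-2.19 and -0.49) outside. Each of the 6 genes just inside failed the rule under 2 or 3 of the 8 single arrays left out.

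The stretches upstream of transcript starts are shown for the first 2 genes of each direction by the smaller of their differences, Dnmt3l and Krt18 (higher) and Mt4 and Map2 (lower). To these come Bnip3 and Cited2, 2 higher genes chosen after a motif search because they carry the MYC and MAX site CACGTG. All are from RefSeq, mouse build GRCm38.p6, and run 5′ to 3′ along the gene's own strand over the 250 bases before the start, with matches to 7 searched motifs in capitals.
Dnmt3l, chr10:78042037-78042286, plus strand, the most upstream of 3 listed starts: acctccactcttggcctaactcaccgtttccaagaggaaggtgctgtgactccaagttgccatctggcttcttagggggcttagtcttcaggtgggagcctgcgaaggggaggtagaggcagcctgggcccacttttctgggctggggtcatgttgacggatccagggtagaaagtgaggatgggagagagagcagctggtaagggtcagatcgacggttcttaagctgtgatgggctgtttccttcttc
Krt18, chr15:102027966-102028215, plus strand: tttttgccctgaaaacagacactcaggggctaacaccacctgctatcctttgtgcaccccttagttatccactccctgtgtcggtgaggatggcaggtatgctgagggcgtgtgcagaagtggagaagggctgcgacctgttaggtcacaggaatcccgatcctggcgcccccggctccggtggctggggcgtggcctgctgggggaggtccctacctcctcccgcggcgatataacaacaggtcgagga
Bnip3, chr7:138909507-138909756, minus strand: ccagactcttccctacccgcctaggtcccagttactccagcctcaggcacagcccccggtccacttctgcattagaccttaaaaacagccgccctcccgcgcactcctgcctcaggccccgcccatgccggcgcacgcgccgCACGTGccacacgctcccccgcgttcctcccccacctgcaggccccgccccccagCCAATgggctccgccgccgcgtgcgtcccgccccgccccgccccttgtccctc
Cited2, chr10:17722978-17723227, plus strand: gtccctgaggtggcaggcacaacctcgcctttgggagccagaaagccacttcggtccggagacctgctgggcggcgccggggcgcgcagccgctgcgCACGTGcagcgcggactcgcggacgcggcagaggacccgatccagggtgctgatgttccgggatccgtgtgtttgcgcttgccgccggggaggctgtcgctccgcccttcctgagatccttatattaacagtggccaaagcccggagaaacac
Mt4, chr8:94136954-94137203, plus strand: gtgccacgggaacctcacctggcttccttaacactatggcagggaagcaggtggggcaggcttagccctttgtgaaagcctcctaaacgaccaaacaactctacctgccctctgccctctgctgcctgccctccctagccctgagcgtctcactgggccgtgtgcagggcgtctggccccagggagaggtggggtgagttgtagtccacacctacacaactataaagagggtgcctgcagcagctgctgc
Map2, chr1:66175079-66175328, plus strand: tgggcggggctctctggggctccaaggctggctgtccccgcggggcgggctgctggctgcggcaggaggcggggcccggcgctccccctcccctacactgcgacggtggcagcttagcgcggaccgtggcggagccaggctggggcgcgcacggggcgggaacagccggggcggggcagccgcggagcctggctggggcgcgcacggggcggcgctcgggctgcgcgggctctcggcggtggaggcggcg
In Bnip3 the capitals mark the E-box 108 to 103 bases and the CCAAT box 53 to 49 bases before the start, and in Cited2 the E-box 153 to 148 bases before it. The other 4 hold none of the 7 motifs in these letters, which says nothing about any factor.

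The searched window ran from 250 bases before to 50 bases after the start, on both strands, in genes with a single start in the table: 53 of the 92 higher genes, 39 of the 59 lower genes and 11791 of all 18193. The E-box CACGTG was found in 7 of 53 higher genes (13.2%, exact 95% interval 5.48 to 25.3%), in 5 of 39 lower genes (12.8%, 4.30 to 27.4%) and in 9.04% of all genes. When only the 150 bases before the start were read, the share among the higher genes was 1.89%, against 5.44% of all genes. The AP-1 site TGACTCA stood in 4 higher genes (7.55%), namely Anxa2, Capn2, Cd68 and Gm364, in 0 of 39 lower genes (up to 9.03% by the exact interval) and in 4.21% of all. The STAT site TTCNNNGAA was found in 11.3% of higher, 2.56% of lower and 7.31% of all genes, and the CCAAT box of NF-Y in 43.4%, 30.8% and 38.6%. The antioxidant response core TGACNNNGC stood in 13.2%, 17.9% and 14.2%. The CRE TGACGTCA was found in 0 higher genes and in 2.56% of lower genes (2.70% of all), and the ATF4 and C/EBP composite TGATGNAAN in 0 higher genes and 5.13% of lower genes (2.75% of all). Each share of all genes lies inside the interval of the matching share in both directions. The median GC content of the windows was 64.3% in higher, 61.0% in lower and 58.7% in all genes.

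Ranked by the smaller of the 2 differences from DMSO, Dnmt3l came first among the higher genes. It encodes a partner of the de novo DNA methyltransferases that has no catalytic activity itself and is known for its part in setting imprints in germ cells. Its log2 values were 5.39, 5.45 and 5.27 with DMSO, 7.0 and 7.18 with the inhibitor and 7.26, 7.09 and 7.07 after release. Both treated groups lay far above DMSO and overlapped each other. The differences were 1.72 ± 0.09 (moderated SE) with the inhibitor and 1.77 ± 0.08 after release. Between released and inhibitor-treated cells it did not pass the test (0.05, 95% interval -0.15 to 0.25; limma adjusted p = 0.673).

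That last comparison, released against inhibitor-treated cells, was the main test for all these genes. Its difference is taken without the DMSO arrays, which enter only the estimate of the spread, since all 8 arrays were fitted together. The rule does not set its sign, but it did read the means of both groups. Many more genes reached 0.5 with the inhibitor (1822 higher, 1464 lower) than after release (226 and 194). Genes that had to reach it in both therefore tend to lie near the threshold after release, which favours return over a further shift. The split below thus partly follows from the choice, and the shares over all genes are not what that choice alone would give. Among the 92 higher genes, 52 (56.5%) fell back toward DMSO, 3 rose further and 37 did not pass (limma, adjusted p under 0.05). Over all genes 41.9% passed, 22.7% as higher and 19.2% as lower in released cells. Among the 59 lower genes, 27 (45.8%) rose back, 7 fell further and 25 did not pass. For comparison, of the genes shifted with the inhibitor that lay within 0.5 of DMSO after release, 98.5% of the higher and 97.1% of the lower passed in the direction of return, a direction which their choice fixes. The values of released and inhibitor-treated arrays did not overlap for 71 of the 92 and 42 of the 59 (61.9% of all genes).

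The size of the released difference relative to the inhibitor difference differed widely from gene to gene. It had a median of 62.6% among the higher genes, with quartiles of 40.1 and 89.3% and a range from 14.6% (App) to 306% (Igf2). In 16 of them it was at least 100%, in 43 between 50 and 100% and in 33 below 50%. Among the lower genes the median was 78.1%, with quartiles of 60.3 and 103% and a range from 24.0% (Khdc3) to 228% (Gjb5), and the counts were 17, 32 and 10. The rule sets a floor for these shares, because a gene with a small inhibitor difference can only enter with a large share.

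**Figure D2:**
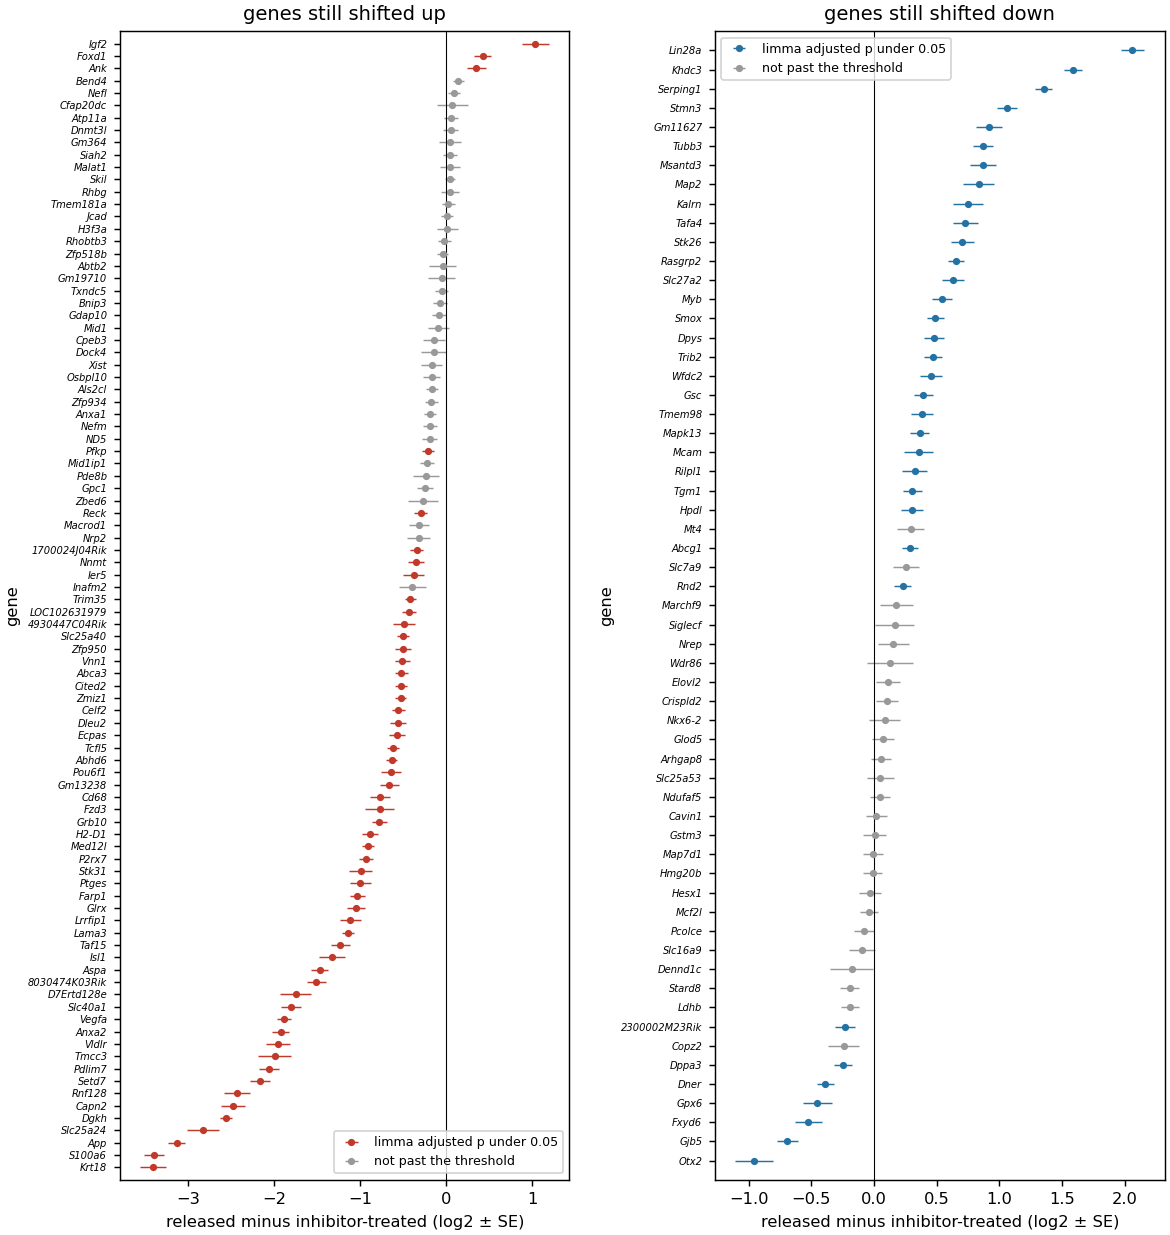
Difference of released from inhibitor-treated cells (log2 ± moderated SE; 3 and 2 arrays) for the 92 higher genes (left) and the 59 lower genes (right), each row 1 gene, coloured where limma's adjusted p was under 0.05. On the left 52 coloured points lie below 0 and 3 above it, and on the right 27 lie above 0 and 7 below it.

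Genes of DNA methylation and imprinting gave 3 of the higher genes, Dnmt3l, Igf2 and Grb10. Of 50 measured genes on that list, 21 were higher and 8 lower with the inhibitor, and 11 were higher and 4 lower after release, with list medians of 0.14 and 0.09. These calls are limma's at an adjusted p under 0.05, as are those on the lists below, and over all genes 19.2% were higher and 22.3% lower with the inhibitor and 4.66% and 4.01% after release, with medians of -0.06 and 0.00. Igf2, an imprinted gene for a fetal growth factor, rose further on release. Its values were 4.55, 5.0 and 5.13 with DMSO, 5.35 and 5.44 with the inhibitor and 6.59, 6.49 and 6.23 after release. The 3 groups did not overlap, and the released arrays stood highest. The rise from inhibitor-treated to released cells was 1.04 ± 0.16 (95% interval 0.68 to 1.40; limma adjusted p = 0.000478). Its inhibitor difference of 0.51 was close to the edge of the rule, and without DMSO replicate 1 or inhibitor-treated replicate 2 it no longer met it.

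Grb10, an imprinted gene for an adaptor that binds insulin and IGF receptors, moved the other way on release. Its values were 7.68, 7.70 and 7.81 with DMSO, 9.42 and 9.5 with the inhibitor, and 8.79, 8.53 and 8.74 after release. The released arrays lay between the others without overlap. It fell by 0.78 ± 0.09 (limma adjusted p = 6.17e-05), which left 55.0% of the inhibitor difference. Grb10 also has an adjacent member among the higher genes, LOC102631979 (1.15 and 0.72). In all, 4 pairs of these genes are neighbours in the RefSeq gene order, the others being Nefl with Nefm, Glrx with Rhobtb3, and Atp11a (higher) with Mcf2l (lower).

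Of 40 measured genes of glycolysis and the response to low oxygen, 14 were higher and 12 lower with the inhibitor, and 14 were higher and 2 lower after release. The shares of all genes were 19.2% and 22.3%, then 4.66% and 4.01%. The list median was -0.04 with the inhibitor and 0.14 after release. The persistent members were Bnip3, Pfkp and Vegfa among the higher genes and Ldhb among the lower. Bnip3 encodes a protein of the outer mitochondrial membrane that is induced by low oxygen and marks mitochondria for autophagy. Its values were 6.59, 6.85 and 6.65 with DMSO, 8.14 and 8.15 with the inhibitor and 8.08, 8.10 and 8.05 after release. The released level was close to the inhibitor level and more than 1 log2 unit above every DMSO array, and the change on release did not pass (-0.07, 95% interval -0.25 to 0.11; limma adjusted p = 0.526).

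Pfkp, a phosphofructokinase isoform, stood at 10.01, 10.11 and 10.14 with DMSO, 10.93 and 10.80 with the inhibitor and 10.63, 10.71 and 10.63 after release. It fell by 0.21 ± 0.07 (limma adjusted p = 0.0375), a call that was lost without inhibitor-treated replicate 1, released replicate 1 or released replicate 3 (adjusted p from 0.0381 to 0.247 over the 8 single arrays left out). Vegfa, the main growth factor for blood vessels, fell by 1.89 ± 0.08 (limma adjusted p = 9.9e-08). It stood at 6.21 to 6.40 with DMSO, 8.69 and 8.74 with the inhibitor and 6.74 to 6.90 after release, and kept 22.2% of its inhibitor difference.

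Ldhb, the lactate dehydrogenase subunit of oxidative tissues, belonged to the lower genes. Its values were 11.24, 11.33 and 11.27 with DMSO, 10.38 and 10.26 with the inhibitor, and 10.16, 10.04 and 10.20 after release. The released arrays lay below the inhibitor-treated arrays, but the difference did not pass the test (-0.19, 95% interval -0.36 to -0.03; limma adjusted p = 0.0574). All 3 further probe sets of Ldhb showed like differences, from -0.94 to -1.01 with the inhibitor and from -1.14 to -1.18 after release.

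Keratins, annexins and S100 genes held some of the widest inhibitor differences. Krt18, a keratin of simple epithelia that pairs with Krt8, stood at 4.26, 4.75 and 4.62 with DMSO, 9.59 and 9.49 with the inhibitor and 5.90, 6.28 and 6.20 after release. The released arrays were far below the inhibitor-treated arrays and still more than 1 log2 unit above every DMSO array. Krt18 fell by 3.41 ± 0.15 (limma adjusted p = 1.25e-07), and the 1.59 that remained was 31.8% of the inhibitor difference. Of 35 measured keratin and junction genes, 17 were higher and 3 lower with the inhibitor, and 7 were higher and 13 lower after release (medians 0.12 and -0.13; all genes: 19.2% and 22.3%, then 4.66% and 4.01%). Krt18 was the only keratin among the higher ones after release, and Krt7, Krt17 and Krt42 were among the lower.

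S100a6, a small calcium-binding protein gene, went from 4.88 to 5.26 with DMSO to 9.41 and 9.22 with the inhibitor and 5.82, 5.98 and 5.96 after release. Anxa2, which encodes an annexin that binds S100 proteins and membranes, stood at 4.68 to 4.96, then 7.62 and 7.60, then 5.57 to 5.81. On release S100a6 fell by 3.40 ± 0.11 (limma adjusted p = 2.91e-08) and Anxa2 fell by 1.93 ± 0.10 (3e-07), which left 20.3 and 31.1% of their inhibitor differences. Anxa1, an annexin known for limiting inflammation, kept more (79.6%). Its difference of -0.19 on release (95% interval -0.34 to -0.03) missed the threshold (limma adjusted p = 0.058) and passed it when DMSO replicate 2 or 3 was left out. Of 21 measured annexin and S100 genes, 10 were higher and 2 lower with the inhibitor, and 5 were higher and 2 lower after release (medians 0.08 and 0.04; all genes: 19.2% and 22.3%, then 4.66% and 4.01%). All 5 of the higher ones were higher in both comparisons.

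Malat1, a long noncoding RNA of nuclear speckles, had the highest count of further probe sets that met the rule, out of 6. Its kept probe set read 9.72, 10.08 and 9.93 with DMSO, 11.01 and 10.78 with the inhibitor, and 11.05, 10.91 and 10.87 after release. Treated and released arrays overlapped each other and lay above every DMSO array. The change on release was 0.05 (95% interval -0.20 to 0.30; limma adjusted p = 0.766). Of its 6 other probe sets, 4 also met the rule, with differences of 0.74 to 1.27 with the inhibitor and 0.59 to 1.00 after release. Another read 1.68 and 0.45, and the weakest read 0.31 and -0.09.

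Cited2, which competes with hypoxia-inducible factors for the coactivators CBP and p300, stood at 8.38, 8.47 and 8.33 with DMSO, 9.78 and 9.80 with the inhibitor and 9.19, 9.34 and 9.28 after release. It fell by 0.52 ± 0.07 (limma adjusted p = 0.000208). Zmiz1, a coactivator with a SUMO-ligase-like domain, fell by 0.53 ± 0.06 from 8.28 and 8.38 to 7.78 to 7.82, with DMSO arrays at 6.81 to 6.91. Med12l, a paralog of the Mediator subunit Med12, fell by 0.91 ± 0.07 from 7.45 and 7.61 to 6.58 to 6.68, with DMSO arrays at 5.68 to 5.79. In these 3 genes the released arrays lay between the other groups without overlap.

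Skil, a repressor of SMAD proteins in TGF-beta signalling, read 8.25, 8.20 and 8.30 with DMSO, 8.88 and 8.89 with the inhibitor and 8.91, 8.95 and 8.95 after release, and the difference of 0.05 between the last 2 groups did not pass (95% interval -0.09 to 0.18; limma adjusted p = 0.578). On the Nodal, TGF-beta and BMP list of 40 measured genes, 14 were higher and 11 lower with the inhibitor, and 8 were higher and 4 lower after release (medians 0.05 and 0.03; all genes: 19.2% and 22.3%, then 4.66% and 4.01%). Isl1, a LIM homeobox gene of mesoderm and motor neurons, fell by 1.33 ± 0.15 and was left at 0.51 above DMSO. Without DMSO replicate 1, DMSO replicate 3 or released replicate 2 it no longer met the rule. Setd7, a lysine methyltransferase gene, kept 19% of its inhibitor difference of 2.67. The immediate early gene Ier5 (1.13 with the inhibitor, 0.76 after release) and Foxd1 gave calls that hung on single arrays.

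Foxd1, a forkhead transcription factor gene, and Ank, which encodes a pyrophosphate transporter, joined Igf2 as the 3 higher genes that rose further on release. Foxd1 stood at 3.23 to 3.58, then 3.88 and 4.03, then 4.32 to 4.46, and rose by 0.43 ± 0.10 (limma adjusted p = 0.00693). Its DMSO arrays lay not far above the Trpn control range (2.15 to 2.95), where fold changes are compressed. Ank stood at 6.14 to 6.53, then 6.96 and 6.98, then 7.27 to 7.37, and rose by 0.35 ± 0.11 (0.0253). The 3 groups did not overlap in either gene. Foxd1 no longer met the rule without DMSO replicate 3 or inhibitor-treated replicate 2, and Ank not without DMSO replicate 3. The call for Foxd1 was lost without inhibitor-treated replicate 1 (adjusted p = 0.0693), and that for Ank without either inhibitor-treated array, released replicate 1 or released replicate 3 (up to 0.11). The call for Ier5, which fell by 0.38 ± 0.12 (0.0285), was lost without either inhibitor-treated array, released replicate 1 or released replicate 2 (up to 0.147).

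**Figure D3:**
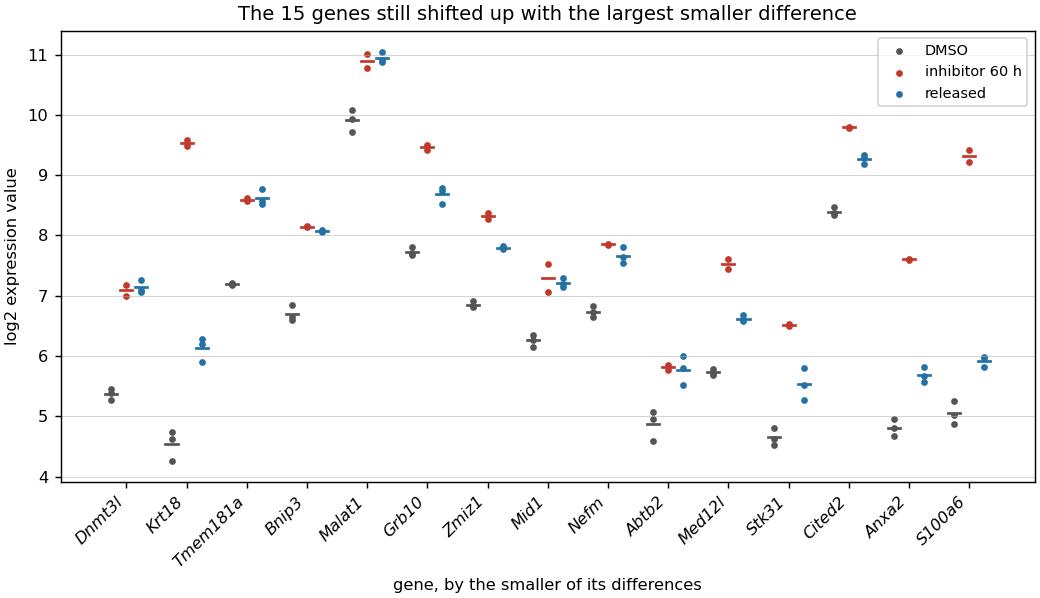
Log2 expression value (vertical axis) on each of the 8 arrays, with a bar at each group mean, for the 15 higher genes with the largest smaller difference. Dnmt3l, Tmem181a, Bnip3, Malat1, Mid1 and Abtb2 show released values next to the inhibitor values, while Krt18, Anxa2 and S100a6 have come most of the way back to DMSO.

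The neurofilament genes Nefl and Nefm, neighbours on chromosome 14 that encode the light and medium subunits of the neuronal intermediate filament, were both higher. Nefm stood at 6.83, 6.74 and 6.65 with DMSO, 7.84 and 7.86 with the inhibitor and 7.65, 7.80 and 7.55 after release. Nefl stood at 9.57, 9.52 and 9.55, then 10.11 and 10.07, then 10.23, 10.23 and 10.08. Neither passed the test on release: Nefm differed by -0.19 (95% interval -0.38 to 0.01; limma adjusted p = 0.113, past the threshold without released replicate 2) and Nefl by 0.09 (-0.06 to 0.25; 0.322). Other neuronal cytoskeleton genes stood opposite. Map2, a protein that bundles microtubules in dendrites, and Tubb3, a neuronal beta-tubulin, were among the lower genes, and of 22 measured neural genes 4 were higher and 7 lower with the inhibitor, and 2 were higher and 3 lower after release (medians -0.07 and 0.03; all genes: 19.2% and 22.3%, then 4.66% and 4.01%).

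Map2 read 5.42, 5.37 and 5.32 with DMSO, 3.21 and 3.26 with the inhibitor and 3.88, 4.36 and 3.98 after release. Its inhibitor-treated arrays lay just above the Trpn control range, where fold changes are compressed. It rose back by 0.83 ± 0.12 (limma adjusted p = 0.000359) and was left 1.30 below DMSO. Tubb3 read 7.65, 7.70 and 7.53, then 6.29 and 6.18, then 7.05, 7.20 and 7.08. It rose back by 0.87 ± 0.08 (1.34e-05) and was left 0.52 below DMSO, a difference that no longer met the rule without DMSO replicate 2 or released replicate 1.

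Otx2, a homeobox gene of the primed epiblast and forebrain, stood at 6.61, 6.80 and 6.68 with DMSO, 5.75 and 5.80 with the inhibitor and 4.47, 5.11 and 4.88 after release. The 3 groups did not overlap and the released arrays were lowest. On release Otx2 fell by 0.95 ± 0.15 (limma adjusted p = 0.000599), so that its released difference was 203% of its inhibitor difference. Of 27 measured formative and primed genes, 4 were higher and 12 lower with the inhibitor, and 8 were higher and 2 lower after release, Otx2 being 1 of the 2 (medians -0.14 and 0.09; all genes: 19.2% and 22.3%, then 4.66% and 4.01%).

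Hesx1, a homeobox repressor of the anterior neural plate and pituitary, read 8.90, 9.11 and 9.05 with DMSO, 7.78 and 7.86 with the inhibitor and 7.71, 7.73 and 7.92 after release, and the treated groups overlapped each other. The difference on release was -0.03 (95% interval -0.23 to 0.17; limma adjusted p = 0.798). Gsc, the goosecoid homeobox gene of the organizer, stood at 5.49 to 5.62, then 3.97 on both arrays, then 4.29 to 4.48. It rose back by 0.39 ± 0.08 (0.00215), which left it 1.18 below DMSO. Nkx6-2, a homeobox gene of the ventral neural tube, read 5.53 to 5.85, then 4.42 and 4.56, then 4.45 to 4.78, and did not pass on release (0.09, 95% interval -0.19 to 0.36; 0.615).

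Dppa3, also called Stella, protects maternal DNA methylation in the zygote and varies from cell to cell in ESC cultures. Its values were 8.80, 8.98 and 8.89 with DMSO, 7.81 and 7.82 with the inhibitor and 7.55, 7.51 and 7.64 after release. The released arrays lay below the inhibitor-treated arrays without overlap. On release it fell by 0.25 ± 0.07 (limma adjusted p = 0.0207), but this call was lost without either inhibitor-treated array, released replicate 1 or released replicate 2 (up to 0.0919). Lin28a, the RNA-binding protein gene that blocks maturation of let-7, had the largest inhibitor difference of the lower genes. It read 7.94, 7.83 and 7.76 with DMSO, 4.90 and 5.12 with the inhibitor and 7.10, 6.95 and 7.16 after release, and rose back by 2.06 ± 0.09 (1.74e-07), with 27.3% of the difference left. Of 33 measured naive and general pluripotency genes, 9 were higher and 15 lower with the inhibitor, and 7 were higher and 2 lower after release (medians -0.06 and 0.06; all genes: 19.2% and 22.3%, then 4.66% and 4.01%). These 2 were Dppa3 and Lin28a.

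Khdc3, an oocyte and ESC gene of genome stability also called Filia, was the lower gene nearest the edge among those that met the rule, and did not meet it without DMSO replicate 2, DMSO replicate 3 or released replicate 1. It rose back by 1.59 ± 0.07 (limma adjusted p = 2.15e-07) from 5.40 and 5.26 to 6.84 to 6.95, with DMSO arrays at 7.34 to 7.48. Myb, a transcription factor gene of progenitor cells, stood at 7.40, 7.45 and 7.36 with DMSO, 5.65 and 5.90 with the inhibitor and 6.29, 6.35 and 6.31 after release. It rose back by 0.54 ± 0.08 (0.000361), and both of its other probe sets met the rule too.

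Mt4, a metallothionein gene of stratified epithelia, had the largest smaller difference of the lower genes. Its values were 5.35, 5.54 and 5.34 with DMSO, 3.79 and 3.43 with the inhibitor and 3.81, 3.92 and 3.98 after release. Released and DMSO arrays were more than 1 log2 unit apart. The difference of 0.29 on release missed the threshold (95% interval 0.04 to 0.54; limma adjusted p = 0.0596) and passed it without inhibitor-treated replicate 1. Rasgrp2, an exchange factor that activates Rap1, read 8.77, 8.89 and 8.75, then 6.94 and 6.85, then 7.53, 7.56 and 7.55. It rose back by 0.65 ± 0.07 (3.09e-05), and 2 of its 3 other probe sets showed still larger differences, -2.52 and -2.31 with the inhibitor and -2.02 and -1.64 after release.

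Dpys, a pyrimidine-degrading dihydropyrimidinase, rose back by 0.48 ± 0.08 (limma adjusted p = 0.000812), and Slc27a2, a fatty acid transporter and acyl-CoA synthetase, by 0.63 ± 0.09 (0.000271). They were left 1.05 and 0.81 below DMSO. Elovl2, an elongase of very long polyunsaturated fatty acids, did not pass on release (0.12, 95% interval -0.10 to 0.33; 0.377). Abcg1, which exports cholesterol, rose back by 0.29 ± 0.06 (0.00344), and the complement inhibitor gene Serping1 by 1.35 ± 0.07 (3.23e-07). The glutathione transferase gene Gstm3 stayed 0.62 below DMSO with a difference of 0.01 on release (-0.20 to 0.21; 0.97), but its near-identical family members may share its probes. Of 55 measured xenobiotic and oxidative stress genes, 34 were higher and 7 lower with the inhibitor, and 2 were higher and 12 lower after release (medians 0.50 and -0.10; all genes: 19.2% and 22.3%, then 4.66% and 4.01%).

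The 7 lower genes that fell further were Otx2, Dppa3, Gjb5, Fxyd6, Gpx6, Dner and 2300002M23Rik, the last 2 of which are named here after their values were seen. Gjb5, a connexin of epithelium and trophoblast, stood at 7.95 to 8.23 with DMSO, 7.57 and 7.51 with the inhibitor and 6.80 to 6.88 after release, and fell by 0.69 ± 0.08 (limma adjusted p = 0.0001). Fxyd6, a regulator of the sodium pump, stood at 6.74 to 6.89, then 6.09 and 5.97, then 5.29 to 5.66, and fell by 0.52 ± 0.11 (0.00307). In both genes the released arrays were lowest and overlapped no other group. Gpx6, a glutathione peroxidase gene, fell by 0.45 ± 0.11 (0.00978), a call lost without inhibitor-treated replicate 2 (0.0706). Gjb5 no longer met the rule without DMSO replicate 2, and Gpx6 not without DMSO replicate 2 or inhibitor-treated replicate 1. That for 2300002M23Rik was lost under 5 of the 8 single arrays left out.

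**Figure D4:**
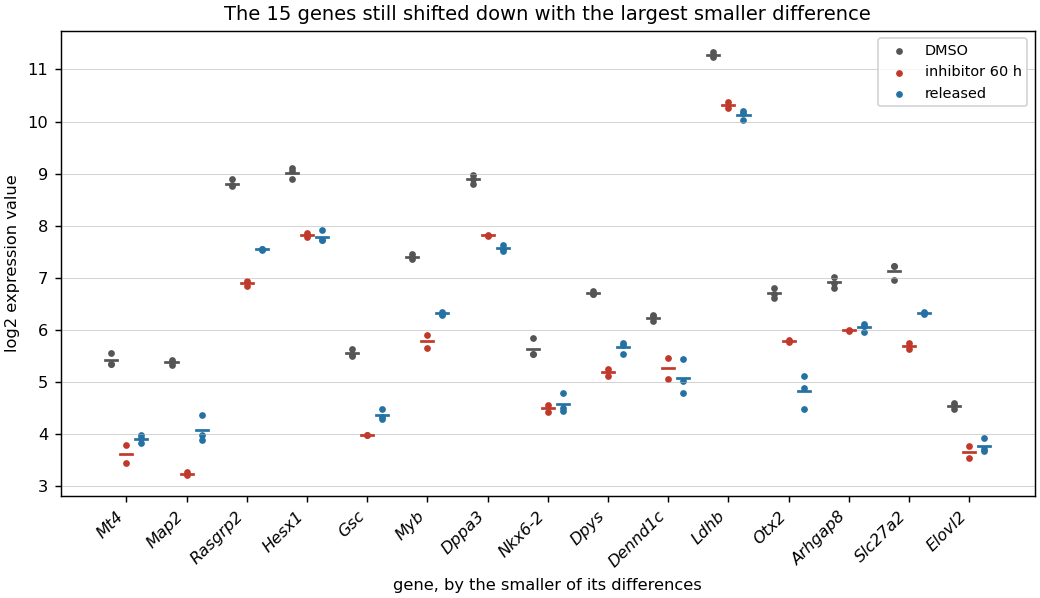
Log2 expression value (vertical axis) on each of the 8 arrays, with a bar at each group mean, for the 15 lower genes with the largest smaller difference. Otx2 and Dppa3 show released values below the inhibitor values, Hesx1 and Nkx6-2 show them level, and Map2, Rasgrp2, Gsc and Myb show them part of the way back to DMSO.

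Further higher genes differed in how much of their shift was left. The germ cell kinase gene Stk31 fell by 0.99 ± 0.13 (limma adjusted p = 0.000216) and the prostaglandin E synthase gene Ptges fell by 1.00 ± 0.12 (0.000119). Lama3, a laminin chain of epithelial basement membrane, fell by 1.14 ± 0.07 (7.98e-07), and Cd68, a lysosomal membrane glycoprotein known from macrophages, fell by 0.77 ± 0.11 (0.000422). Vldlr, a lipoprotein and reelin receptor, fell by 1.95 ± 0.14 and Pdlim7, an actin-associated scaffold, fell by 2.06 ± 0.12. These 6 genes kept between 21.8 and 47.0% of their inhibitor differences. Of 34 measured genes of the amino acid and integrated stress response, 26 were higher and 1 lower with the inhibitor, and 2 were higher and 3 lower after release (medians 0.81 and 0.03; all genes: 19.2% and 22.3%, then 4.66% and 4.01%). Vldlr was the 1 higher gene by the rule among them (0.506% of all genes). Its further probe sets reached 2.42 with the inhibitor but ran from -0.23 to 0.32 after release, where none was called. With all its probe sets averaged it was 0.14 above DMSO after release and no longer met the rule. Of 52 lysosome and autophagy genes, 41 were higher and 6 lower with the inhibitor, and 5 were higher and 5 lower after release (medians 0.81 and 0.03; all genes: 19.2% and 22.3%, then 4.66% and 4.01%). Cd68 was the 1 higher gene by the rule among them.

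The smallest shares were those of App, the amyloid precursor protein gene, Capn2, a calpain protease gene, Slc25a24, a mitochondrial ATP-Mg carrier gene, and Setd7. App read 6.41, 6.43 and 6.12 with DMSO, 10.02 and 9.96 with the inhibitor and 6.79, 6.86 and 6.91 after release. It fell by 3.13 ± 0.10 (limma adjusted p = 2.31e-08) and was left 0.54 above DMSO. Capn2 fell by 2.48 ± 0.14 (6e-07) and Slc25a24 fell by 2.82 ± 0.18 (1.54e-06). The remaining differences lay close to 0.5, and whether they reached it depended on single arrays. App and Slc25a24 no longer met the rule without DMSO replicate 3, and Capn2 not without DMSO replicate 3 or released replicate 2. Setd7 no longer met it without DMSO replicate 1, released replicate 2 or released replicate 3. The same held for Vegfa (DMSO replicate 1), Vldlr (released replicate 2), Pdlim7 and H2-D1 (DMSO replicate 3).

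At the other end stood genes with large released shares whose change on release did not pass the test, which does not show that the levels were equal. Tmem181a read 7.19, 7.21 and 7.19 with DMSO, 8.62 and 8.57 with the inhibitor and 8.53, 8.77 and 8.58 after release. The difference on release was 0.03 (95% interval -0.15 to 0.20; limma adjusted p = 0.8). Mid1, a microtubule-associated ubiquitin ligase gene, read 6.15 to 6.36, then 7.52 and 7.07, then 7.14 to 7.29, and did not pass on release (-0.09, -0.36 to 0.18; 0.603), although it passed without inhibitor-treated replicate 2. Abtb2 (-0.04, -0.39 to 0.31), Bend4 (0.14, 0.00 to 0.29) and Siah2 (0.05, -0.13 to 0.23) did not pass either. In Bend4 the released arrays (8.40 to 8.45) nevertheless lay above both inhibitor-treated arrays (8.30 and 8.25). The histone gene H3f3a (0.51 and 0.52 above DMSO) has near-identical copies, as does the class I histocompatibility gene H2-D1 (1.46 and 0.57), so their values may be shared with related transcripts. H3f3a met the rule in only 4 of the 8 sets with 1 array left out, and not with median centring.

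Of 43 measured DNA replication genes, 0 were higher and 39 lower with the inhibitor, and 0 were called after release (medians -0.70 and 0.03). Of 40 genes of mitosis, 0 were higher and 39 lower with the inhibitor, and 1, Prc1, was called after release, as higher (medians -0.85 and 0.09). Of 54 ribosome biogenesis genes, 1 was higher and 34 lower with the inhibitor, and 0 and 1 after release (medians -0.29 and 0.03). Of 14 measured genes of the MYC network, 1 was higher and 6 lower with the inhibitor, and Myc and Mga were higher and 0 lower after release (medians -0.13 and -0.02). For all genes these shares were 19.2% and 22.3%, then 4.66% and 4.01%. These 4 lists held 0 persistently shifted genes, as did others, among them the lists of Wnt targets and apoptosis regulators. Over all genes the rule took 0.506% as higher and 0.324% as lower, so 0 on lists of this length is unremarkable. In all, 23 of the 92 higher and 10 of the 59 lower genes stood on any of the 38 lists. The share of all genes on these lists was not counted, so the counts show neither an excess nor a lack.

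Other probe sets of the same genes were a measure the rule had not used, although on the same arrays. Of the 92 higher genes 30 had no further probe set, and the other 62 had 126. Of these 126, 82 pointed up in both comparisons, 18 (14.3%, in 15 genes) passed limma in both, against 1.9% of all probe sets that were not kept, and 13 (10.3%, in 10 genes) met the rule, against 0.597%. Of the 59 lower genes 24 had 44 further probe sets, of which 37 pointed down in both comparisons, 16 (36.4%, in 11 genes) passed limma in both, against 1.06%, and 14 (31.8%, in 9 genes) met the rule, against 0.197%. The median differences of the further probe sets were 0.16 and 0.14 for the higher genes and -0.39 and -0.20 for the lower. Their median level was 3.82 and 4.30, near the control range in many cases, and being the weaker ones follows from the choice of the strongest probe set.

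Among higher genes with a further probe set past the rule were Cited2 (1.12 with the inhibitor, 0.80 after release), Nefl (1.10 and 0.67), Siah2 (1.07 and 1.12), Stk31 (1.64 and 0.62) and Pfkp (0.60 and 0.55). Those of other genes did not follow. The other probe set of Igf2, with a mean level of 3.21, read -0.31 and -0.01. Those of Mid1 read -0.45 and -0.28 with the inhibitor, and that of App with a mean level of 6.58 read 3.04 and then 0.29. In Kalrn, a lower gene chosen here for this result, 1 of 7 further probe sets was called higher after release (0.35). When all probe sets of a gene were averaged, 41 higher genes met the rule, 39 of them shared with the 92, and 51 lower genes, 47 of them shared with the 59. Among the named genes, Grb10, Zmiz1, Mid1, Abtb2, Med12l, Anxa1, Anxa2, App, Igf2, Vegfa, Skil, Pfkp, Map2 and Dpys were among those that no longer met it.

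**Figure D5:**
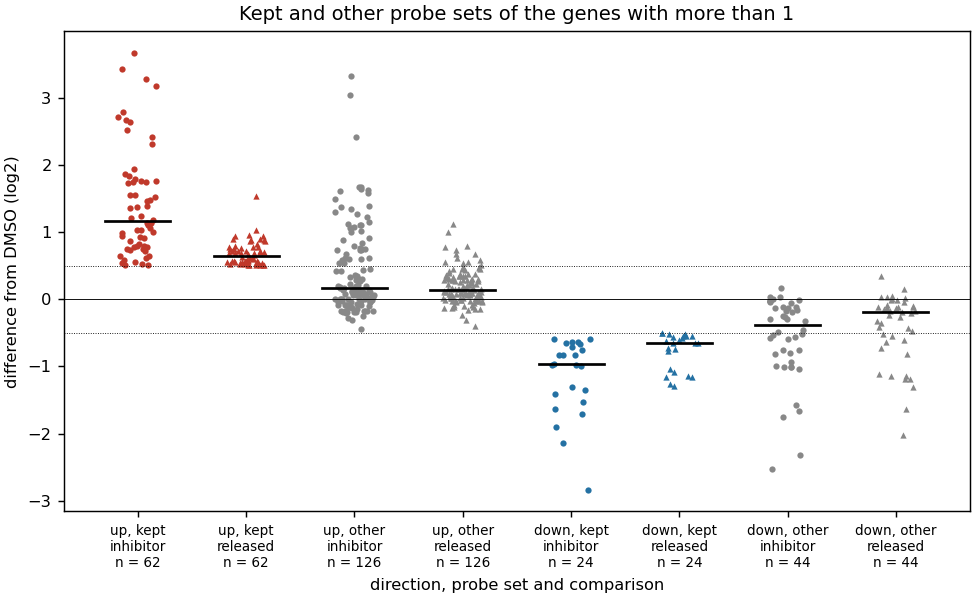
Difference from DMSO (vertical axis, log2) of the kept probe sets (coloured) and of all other probe sets (grey) of the genes with more than 1, with inhibitor-treated cells as circles and released cells as triangles; bars mark medians and dotted lines 0.5 and -0.5. The grey medians lie nearer to 0, at 0.16 and 0.14 for the higher and -0.39 and -0.20 for the lower genes.

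Membership also varied with the arrays used. Of the 92 higher genes 56, and of the 59 lower genes 39, met the rule with each of the 8 arrays left out in turn. Leaving out DMSO replicate 1 or released replicate 2 removed 16 of the higher genes each, and DMSO replicate 3 removed 13. Leaving out released replicate 1 removed 13 of the lower genes, and DMSO replicate 2 removed 12. Dnmt3l, Krt18, Tmem181a, Bnip3, Malat1, Cited2, Otx2, Dppa3, Mt4, Map2, Myb, Hesx1 and Ldhb were among those that met it in all 8 cases. The calls between released and inhibitor-treated cells were the same in all 8 cases for 48 of 55 called and 29 of 37 uncalled higher genes, and for 26 of 34 and 21 of 25 lower genes.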

How the data were processed

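Total RNA of each of 8 samples was labelled with biotin and hybridised to an Affymetrix GeneChip. The values that the authors deposited are on the log2 scale and were made with RMA, and oligo 1.32.0 and limma 3.2.15 are also named, per the submitters' processing notes. The range of the values shows the log2 scale. RMA corrects background and equalises the distribution of values between arrays, so a change of RNA amount shared by most genes is not visible. Precision is limited by how many arrays there are, since arrays carry no read depth.

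Of 45101 probe sets, 34945 had 1 gene symbol in the platform annotation, 932 several, 9160 no gene named here, and 64 were controls. Probe sets of 1 gene were used, and of the 9010 genes with more than 1 the probe set with the highest mean was kept. All 8 arrays went into a single limma 3.58.1 fit (lmFit, eBayes; R 4.3.3), with Benjamini-Hochberg adjustment over 18193 genes, two-sided, at 0.05. The residual degrees of freedom were 5 and the prior ones 4.55. The fit was tested on simulated data. Python 3.11.15 and matplotlib 3.10.9 read tables and drew figures. Of the kept genes, 18032 were found in the RefSeq gene list, and promoters in its GRCm38.p6 table were matched by symbol for 74 of 92 and 51 of 59 genes.

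The members, the 38 gene lists and the tests were chosen with earlier results of these data known. Named genes are, per direction and without unnamed gene models (8 of the higher and 2 of the lower genes), the 15 with the largest smaller difference, 3 just inside and 3 just outside the threshold, up to 4 per list, and the 4 with the largest and the 4 with the smallest released share. The rule was also applied to the averaged probe sets of a gene, with thresholds of 0.4, 0.75 and 1, without genes of the lowest 30% of levels, and after median centring or repeated quantile normalization. The test was also run with robust fitting and a trend in the variance, with array weights, on the inhibitor-treated and released arrays alone, at an adjusted p of 0.01 and with a block for the replicate number. Each array was left out in turn, and a shorter promoter window was read. Same-numbered arrays of different groups did not deviate together (correlations of -0.06 to 0.01), so no pairing was assumed.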

Additional observations from a re-analysis of the deposited data

Results flagged for a closer look

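Probe sets with no gene named here lie outside the comparisons above, and 134 of 9160 (1.46%) were at least 0.5 above DMSO both with the inhibitor and after release, while 6 (0.0655%) were at least 0.5 below in both. Among the kept probe sets of genes these shares were 0.506% and 0.324%. The unnamed probe sets leaned upward in each comparison alone. With the inhibitor 8.09% were at least 0.5 above DMSO and 1.81% at least 0.5 below, and after release 2.24% and 0.207%. For the kept probe sets these were 10% and 8.05%, then 1.24% and 1.07%. The count of 134 is of data outside the main measurement, and no test was made of it. With single arrays left out it ran from 98 to 207. The median level of the 134 was 5.69 and that of all 9160 was 3.45.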

How the results depend on the processing

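The number of persistently shifted genes followed the threshold: 154 higher and 105 lower genes met the rule at 0.4, 23 and 20 at 0.75, and 4 and 9 at 1, as the threshold's own construction sets. With the mean of all probe sets of a gene 41 were higher, and the cause was not tested. The share of higher genes with an E-box was 1.89% when only the 150 bases before the start were read, by the shorter window. Leaving out single arrays gave 76 to 106 higher and 51 to 70 lower genes, and 49 to 58 and 29 to 35 of the 92 and 59 called between released and inhibitor-treated cells. Without either inhibitor-treated array, the array left is assumed to vary like the other groups. With the replicate number as a block, 92 higher and 59 lower genes met the rule and 58 and 31 were called, against 55 and 34 without it. The labels do not say whether the numbers pair the arrays. Same-numbered arrays did not deviate together more than others (correlations of -0.06 to 0.01 and of -0.06 to 0.07), which does not settle it. Under all 17 alternatives run for each, the called counts stayed within 1.5 times. App, Capn2, H3f3a, Isl1, Reck, Setd7 and Slc25a40 no longer met the rule with median centring, and H3f3a, Igf2, Isl1, Khdc3, Reck, Setd7, Siah2, Slc25a40 and Smox not after repeated quantile normalization. Precision is limited by 2 inhibitor-treated arrays. Genes near the control level have compressed differences, and 1 lower gene reached it in a group.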
